A study of Homo sapiens with 8 samples.

Results

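Potassium, calcium and sodium channel genes were followed in H9, a line of human embryonic stem cells in long use, whose cells either carried both copies of EXT1 (wild type, WT) or were an EXT1-/- line made with CRISPR/Cas9. Members were chosen by symbol alone: every row of the deposited gene table named as a potassium channel gene (KCN followed by letters and a number), a calcium channel gene (CACNA, CACNB or CACNG) or a sodium channel subunit gene (SCN with a number and A or B), without antisense and intronic transcripts. This gave 64 genes of the 15811 in the table. GENCODE 29 annotates 135 protein-coding genes with such names, and the other 71 were not analysed here. EXT1 encodes a glycosyltransferase that elongates heparan sulfate chains; by its labels the mutant line lacks this glycan. Both groups, of 4 libraries each, were collected after 28 h in RPMI-1640 medium with 6 µM CHIR-99021, a GSK3 inhibitor that activates β-catenin signalling and starts mesendoderm differentiation. The induction was therefore shared by the controls, and a single EXT1-/- line stood for the genotype. No label states whether the replicates were cultured apart, so the p-values cover only the spread among these 8 libraries, part or all of which may be technical.

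Voltage-gated channels are membrane proteins whose pore opens when the membrane potential changes. A pore-forming subunit selects the ion, and auxiliary subunits set its trafficking and gating. Potassium channels pull the membrane potential to negative values, whereas calcium and sodium channels admit positive charge, and calcium entering through them also acts as an intracellular signal. These families are best known from neurons, heart and skeletal muscle, but many members are also transcribed in cells that do not fire action potentials.

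Values per library are read counts that the authors normalised to a common library size. Library totals ran from 37737058 to 40017763, and a normalised count of 38.9 corresponds to 1 CPM, a share-of-library unit. EXT1 itself ranged from 1464 to 1776 in WT and from 890 to 980 in EXT1-/- libraries. Of the defining markers checked, all 7 of pluripotent stem cells and 6 of 7 of mesendoderm were in the table, with 5 lower and 1 higher (SOX2) of the first list and 5 lower of the second; TBXT, the primitive streak factor, ranged from 6244 to 7319 in WT and from 3002 to 4932 in EXT1-/- libraries. Libraries fell into 2 sets by the share of mitochondrially encoded transcripts: 9.18 to 10.67% in WT replicate 1 and EXT1-/- replicates 1 and 4 (the high set), against 5.3 to 5.43% in the other 5 libraries (the low set). The labels do not name these sets, and genotype differences within each set are given beside the results they touch. Fold changes below are log2 differences of value + 1, EXT1-/- against WT, with the standard error and the Benjamini-Hochberg adjusted p of limma fitted over all 15811 genes.

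Channel genes moved in both directions. Of the 64, 17 rose and 16 fell in EXT1-/- relative to WT cells at an adjusted p under 0.05 (limma), together 51.6% of the members. Among all genes tested 32.0% passed, 15.2% higher and 16.8% lower. The median log2 fold change of the channel genes was 0.03 (0.01 over all genes), and the median of its absolute size was 0.40 (0.22 over all genes). Levels bear on that contrast: 53 channel genes had a mean under 500 normalised counts, of which 56.6% were called, against 36.2% of all genes below that level. At a mean of 500 or more, 3 of 11 channel genes were called (27.3%), against 2684 of 9242 genes at that level. The table lists only genes of about 1 CPM in at least 2 libraries. Without the 6 members that reached 1 CPM in 2 libraries of 1 genotype only (CACNA1G, KCNK12, CACNA1C, KCNIP1, KCNMA1 and KCNS1), 27 of 58 were called (46.6%), against 30.6% of all genes chosen the same way. Values of the groups did not overlap in 34 channel genes (53.1%), and in 33.5% of all genes.

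At least a 2-fold change was called for 8 channel genes, 5 higher and 3 lower, or 12.5% of the members against a background of 7.02% (2.74% higher and 4.28% lower). Without the 6 members that reached 1 CPM in 2 libraries of 1 genotype only, CACNA1G and KCNS1 among them, there were 6 of 58 (10.3%), against 4.81% of all genes chosen the same way. CACNA1E, CACNA1G, CACNB3, SCN4A and KCNN1 were higher, and KCNS1, KCNH8 and KCNA5 were lower. A further 5 called genes lay just under that line, among them KCND1 with a 1.99-fold rise and KCND2 with a 1.98-fold fall.

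**Figure D1:**
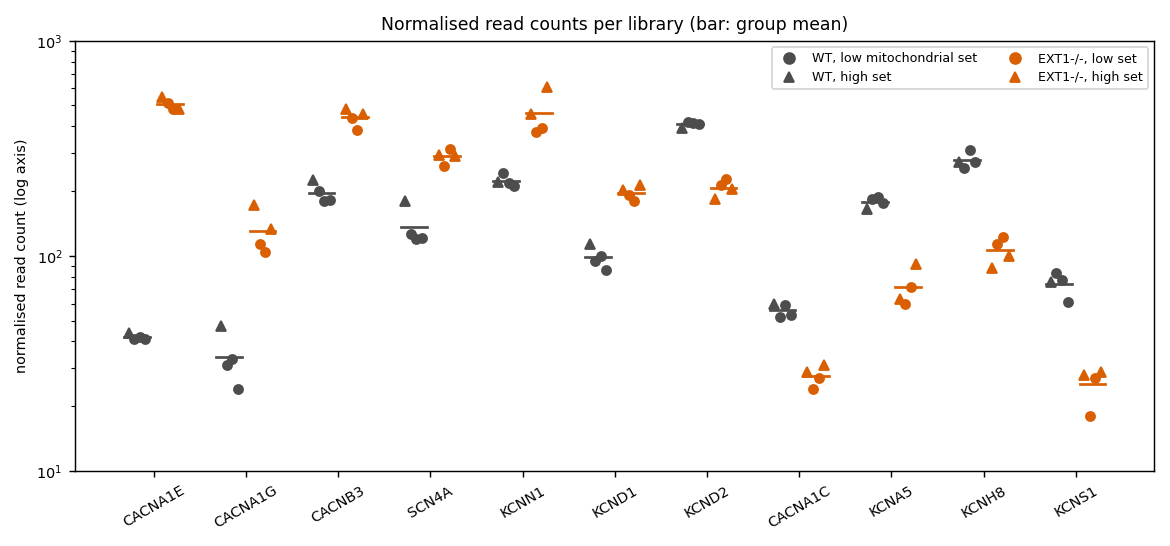
Normalised read counts on a log axis in each library for 11 channel genes, with bars at the group means, WT in grey, EXT1-/- in orange, circles for the low and triangles for the high mitochondrial set. In all 11 the 4 EXT1-/- values lie apart from the 4 WT values, most widely for CACNA1E (41 to 44 against 481 to 548).

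The largest change was in CACNA1E (ENSG00000198216, chromosome 1, 181317690 to 181808084, plus strand, GRCh38), which encodes the pore of the R-type calcium channel, a high-voltage-activated channel of neurons and endocrine cells. Its normalised counts were 44, 41, 42 and 41 in the 4 WT libraries, in order of replicate number, and 548, 516, 482 and 481 in the 4 EXT1-/- libraries. The WT libraries thus sat close to 1 CPM, and every EXT1-/- library was more than 10 times higher. The log2 fold change was 3.56 ± 0.08 (SE; adjusted p 4.58e-08, limma), an 11.8-fold rise. Low-set libraries alone gave 3.56 and high-set libraries alone 3.51. With 70 possible splits of 8 libraries into groups of 4, the exact two-sided permutation p was 0.0286, which is the lowest it can be here. Each of the 34 members without overlap has that same p.

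CACNA1G (chromosome 17, 50561068 to 50627474, plus strand) encodes a T-type calcium channel pore, which opens at small depolarisations. Its counts were 47, 31, 33 and 24 in WT and 173, 113, 104 and 133 in EXT1-/- libraries. The groups were separate, with the highest value of each genotype in a high-set library, and the log2 fold change was 1.93 ± 0.23 (adjusted p 0.000320, limma; 1.86 within the low set). CACNB3 (chromosome 12, 48813794 to 48828941, plus strand), a cytoplasmic β subunit that carries calcium channel pores to the membrane, rose from 196.8 ± 21.6 to 440.8 ± 40.6 (SD, n = 4 each), a log2 fold change of 1.16 ± 0.10 (adjusted p 5.23e-05, limma).

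Among the falls, KCNH8 (chromosome 3, 19148454 to 19535646, plus strand), a voltage-gated potassium channel pore of the ether-à-go-go-like branch, had counts of 274, 256, 310 and 273 in WT and 88, 113, 123 and 100 in EXT1-/- libraries. No EXT1-/- library reached the lowest WT value, and the log2 fold change was -1.39 ± 0.12 (adjusted p 4.58e-05, limma). KCNA5 (chromosome 12, 5043989 to 5046788, plus strand, 1 exon), a Shaker-type delayed rectifier pore best known from the atrium, had 166, 184, 188 and 176 in WT and 63, 60, 72 and 92 in EXT1-/- libraries. That was a log2 fold change of -1.32 ± 0.14 (adjusted p 0.000171, limma). KCNS1 (chromosome 20, 45092310 to 45101112, minus strand), a subunit that forms no channel alone but modifies other potassium pores, had 76, 83, 77 and 61 in WT and 28, 18, 27 and 29 in EXT1-/- libraries (log2 fold change -1.52 ± 0.20, adjusted p 0.000488, limma). Its EXT1-/- values were all under 1 CPM.

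The pair KCND1 and KCND2, which encode pores of the same A-type potassium channel family, changed by nearly equal amounts in opposite directions. KCND1 (chromosome X, 48961378 to 48971569, minus strand) had 113, 95, 100 and 86 in WT and 202, 192, 179 and 213 in EXT1-/- libraries, a log2 fold change of 0.99 ± 0.11 (adjusted p 0.000194, limma). KCND2 (chromosome 7, 120273668 to 120750331, plus strand) had 395, 417, 416 and 410 in WT and 183, 214, 227 and 204 in EXT1-/- libraries, a log2 fold change of -0.98 ± 0.08 (adjusted p 3.38e-05, limma). Per kb of annotated exon, the level of KCND1 went from 17.0 ± 1.94 to 33.8 ± 2.49 and that of KCND2 from 73.7 ± 1.83 to 37.3 ± 3.34 (SD, n = 4 each). KCND2 was thus well above KCND1 in WT libraries, and in EXT1-/- libraries both lay near the same level.

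To show the DNA in front of the genes that moved most or as an opposed pair, the 250 bases before the RefSeq start (GRCh38.p14) are printed for the 5 of them that have a single entry, 5′ to 3′ on the gene's strand. Capitals mark a match on either strand to one of several short motifs. The GC box was searched as GGGCGG, the CCAAT box by the letters of its name, the TATA box as TATAAA and the E-box as CANNTG. Sites of TCF/LEF factors, which act with β-catenin, were searched as CTTTGAT, the cyclic AMP response element (CRE) as TGACGTCA, the left part of RE1, the element bound by the neuronal gene repressor REST, as TTCAGCACC, and ETS factor sites as CCGGAAGT. CCAAT and CANNTG can overlap each other. Positions are CACNA1E at chr1:181483267-181483516 (plus strand), KCND1 at chrX:48971845-48972094 (minus), KCND2 at chr7:120272925-120273174 (plus), KCNA5 at chr12:5043629-5043878 (plus) and KCNH8 at chr3:19148260-19148509 (plus).
CACNA1E: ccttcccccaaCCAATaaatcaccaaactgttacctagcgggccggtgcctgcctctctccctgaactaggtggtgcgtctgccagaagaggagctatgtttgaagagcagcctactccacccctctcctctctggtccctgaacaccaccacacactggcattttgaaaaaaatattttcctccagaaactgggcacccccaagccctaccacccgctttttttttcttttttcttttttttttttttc
KCND1: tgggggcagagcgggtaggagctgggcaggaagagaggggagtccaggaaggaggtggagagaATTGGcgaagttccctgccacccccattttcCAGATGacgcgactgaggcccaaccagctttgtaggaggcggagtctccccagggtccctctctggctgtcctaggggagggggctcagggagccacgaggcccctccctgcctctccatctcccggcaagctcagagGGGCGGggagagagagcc
KCND2: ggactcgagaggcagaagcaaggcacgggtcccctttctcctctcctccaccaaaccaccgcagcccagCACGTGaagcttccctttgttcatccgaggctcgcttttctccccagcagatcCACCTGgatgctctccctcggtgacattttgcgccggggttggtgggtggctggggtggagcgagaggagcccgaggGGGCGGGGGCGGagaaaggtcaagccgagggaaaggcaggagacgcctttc
KCNA5: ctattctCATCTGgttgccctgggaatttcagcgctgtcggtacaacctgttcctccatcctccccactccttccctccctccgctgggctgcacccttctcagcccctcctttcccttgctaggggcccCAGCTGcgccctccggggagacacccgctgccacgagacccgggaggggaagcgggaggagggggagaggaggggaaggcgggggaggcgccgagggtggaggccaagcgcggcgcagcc
KCNH8: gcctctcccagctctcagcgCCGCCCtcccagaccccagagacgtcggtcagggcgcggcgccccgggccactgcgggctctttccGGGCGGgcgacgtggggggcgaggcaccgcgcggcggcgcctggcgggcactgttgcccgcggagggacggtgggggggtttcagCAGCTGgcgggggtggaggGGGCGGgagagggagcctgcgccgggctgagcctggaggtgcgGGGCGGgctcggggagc
Of the 5, the KCNH8 window was the richest in G and C (79.2%, 30 CpG dinucleotides) and held 4 GC boxes and 1 E-box, whereas the CACNA1E window had 48.8% G and C, 4 CpG dinucleotides, a CCAAT match and no GC box. KCND2 had 2 GC boxes and 2 E-boxes. KCND1 had 1 GC box, 1 CCAAT match and 1 E-box, and KCNA5 had 2 E-boxes only. None of these 5 windows held the TATA, TCF/LEF, CRE, RE1 or ETS letters. The CACNA1E window lies within the GENCODE 29 span of the gene, well downstream of its first annotated start, so it precedes an internal start. The nearest GENCODE 29 transcript start was 24 bases from the RefSeq start for KCNH8, 63 for CACNA1E, 110 for KCNA5, 275 for KCND1 and 493 for KCND2.

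RefSeq promoter entries were found for 44 of the 64 members (76 windows, since some genes have several starts). A GC box was in 57.9% of these windows, against 62.5% of the 15959 windows of genes in the deposited table and 42.6% of all 35116 RefSeq windows. E-boxes were in 56.6%, 54.5% and 61.8% respectively, and CCAAT in 30.3%, 32.6% and 32.0%. TATA boxes were in 6.6%, 5.8% and 10.7%. Matches to CTTTGAT were in 2.6% of the channel windows, and in 1.5% and 2.3% of the others. The ETS letters were in 1.3%, 5.7% and 3.4%, the left part of RE1 in 1.3%, 0.2% and 0.3%, and CRE in 0.0%, 2.3% and 1.6%. By call, a GC box was in 70.0% of 20 windows of genes that were higher, in 56.2% of 16 windows of genes that were lower and in 52.5% of 40 windows of genes not called. These are descriptions of letters in a window, and small numbers stand behind them.

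Voltage-gated potassium pores were the role in which most members moved: 9 of 13 passed, 4 higher and 5 lower (69.2%, against 32.0% of all genes), with a median log2 fold change of -0.11. The higher genes included KCND1 and KCNH2 (0.85 ± 0.15), the rapid delayed rectifier that repolarises the heart. The lower genes included KCND2, KCNA5, KCNH8 and KCNQ1 (-0.40 ± 0.11), the slow delayed rectifier of heart and epithelia. These are log2 fold changes with their SE, called by limma.

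KCNH2 had 294, 229, 234 and 195 normalised counts in WT and 462, 402, 351 and 504 in EXT1-/- libraries. Every EXT1-/- value was above the highest WT value (adjusted p 0.00264, limma). KCNQ1 had 139, 136, 157 and 123 in WT and 103, 105, 95 and 115 in EXT1-/- libraries (adjusted p 0.0218, limma). The groups were apart by a small margin, and the authors' deposited table gives KCNQ1 an FDR of 0.116, which is not called there. Without WT replicate 2, WT replicate 3, EXT1-/- replicate 1 or EXT1-/- replicate 3 its adjusted p was 0.0512 to 0.0650. KCNQ1OT1, an antisense transcript that shares 121 exon bases with KCNQ1, had a log2 fold change of 0.36 ± 0.12 (adjusted p 0.0513, limma), and counting by strand is not stated in the sources used here.

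**Figure D2:**
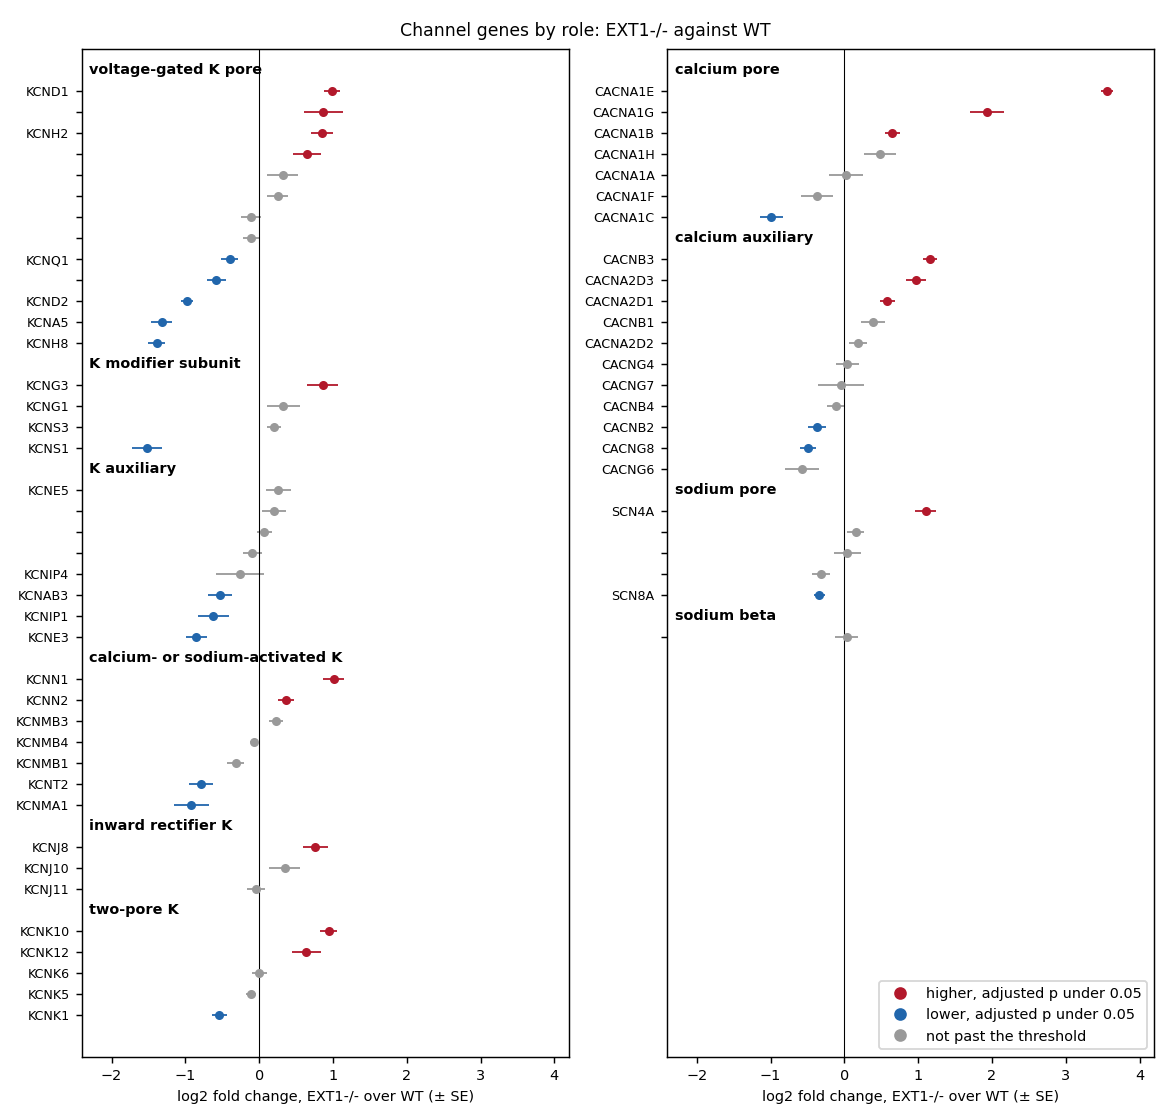
Log2 fold change (EXT1-/- over WT, bars ± SE from limma) of the 64 channel genes, grouped by role and ordered within each role; red and blue points passed an adjusted p of 0.05 as higher and lower, grey points did not, and most genes described in the text are labelled. Most roles hold members on both sides of 0, and CACNA1E lies farthest out at 3.56.

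Among the 4 potassium modifier subunits, KCNG3 rose (0.86 ± 0.21, adjusted p 0.0120, limma), KCNS1 fell as given above, and KCNG1 and KCNS3 did not pass. KCNG1 had the highest mean per length of the potassium channel genes in both genotypes, with 253 ± 25.8 per kb in WT and 332 ± 130 in EXT1-/- cells (SD, n = 4 each). Its counts were 1497, 1287, 1490 and 1223 in WT and 1620, 1274, 1483 and 2841 in EXT1-/- libraries, so EXT1-/- replicate 4 alone lay far above the rest (adjusted p 0.297, limma). Of 8 potassium auxiliary genes 3 were lower and none higher, with a background of 16.8% lower. KCNE3, a single-span partner of KCNQ1 in epithelia, fell from 101.5 ± 9.88 to 56.2 ± 8.42 (SD, n = 4 each), a change of -0.85 ± 0.14 with an adjusted p of 0.00227 (limma). KCNAB3, a cytoplasmic β subunit, and KCNIP1, a calcium sensor that binds KCND pores, changed by -0.53 and -0.62, with adjusted p of 0.0319 and 0.0496 (limma). KCNIP1 reached 1 CPM in 2 libraries only of WT, where it is high. It lost its call with a pseudocount of 0.5, with median-of-ratios factors and without any 1 library other than EXT1-/- replicate 1. KCNAB3 lost it without any 1 WT library and without EXT1-/- replicate 1. The most abundant gene of this role per length, KCNE5, which dampens other potassium currents, ranged from 62 to 74 counts in WT and from 62 to 99 in EXT1-/- libraries and did not pass. KCNE5 shares 78 exon bases on the same strand with ACSL4, which had means of 7436 in WT and 5940 in EXT1-/- libraries. Whether ACSL4 reads add to the KCNE5 counts was not tested.

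Of 7 genes for potassium channels opened by intracellular calcium or sodium, 2 were higher and 2 lower (57.1%, against 32.0% of all genes). KCNMA1, 1 of the lower genes, reached 1 CPM in 2 libraries only of WT, where it is high. KCNN1 and KCNN2, small-conductance pores gated by calcium through calmodulin, were both higher. KCNN1 had 220, 243, 219 and 212 counts in WT and 457, 378, 394 and 607 in EXT1-/- libraries (log2 fold change 1.01 ± 0.14, adjusted p 0.000852, limma). By set, that difference was 0.78 (low) and 1.26 (high). KCNN2 had 282, 275, 262 and 240 in WT and 349, 301, 312 and 402 in EXT1-/- libraries, a difference of 0.36 ± 0.11 (adjusted p 0.0308, limma). In low-set libraries alone KCNN2 had an adjusted p of 0.0594 (limma), which misses the threshold, and the authors' deposited table does not call it. Leaving out WT replicate 2, 3 or 4, or EXT1-/- replicate 1 or 4, gave it an adjusted p of 0.0595 to 0.0850.

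KCNMA1, the large-conductance pore opened jointly by voltage and calcium, went the other way, with 52, 47, 55 and 58 in WT and 28, 18, 40 and 28 in EXT1-/- libraries. The groups did not overlap, and the log2 fold change was -0.92 ± 0.24 (adjusted p 0.0179, limma; 0.0515 without WT replicate 4). The authors' deposited table does not call KCNMA1 (FDR 0.0558). KCNT2, a sodium-activated pore, fell from 539.0 ± 73.6 to 313.8 ± 64.0 (SD, n = 4 each; -0.79 ± 0.16, adjusted p 0.00579, limma). KCNMB4, a β subunit of KCNMA1 channels, was the most abundant of the role per length at 213 ± 11.9 and 203 ± 8.69 per kb, and it did not pass (-0.07 ± 0.06). Its pore partner KCNMA1 stood at 1.49 per kb in WT and 0.80 in EXT1-/- cells. The length used joins all annotated exons, 35644 bases for KCNMA1 and 4874 for KCNMB4. It can exceed any single transcript, so the gap between these 2 genes may be overstated.

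Inward rectifiers, which hold the resting potential, were sparsely represented, with 3 of 16 annotated genes in the table. KCNJ8, a pore of ATP-sensitive channels, rose from 54.8 ± 11.6 to 92.0 ± 8.83 (SD, n = 4 each; 0.76 ± 0.17, adjusted p 0.00806, limma). KCNJ11, the other ATP-sensitive pore, ranged from 141 to 176 in WT and from 137 to 182 in EXT1-/- libraries and did not pass (-0.04 ± 0.12). KCNJ10 ranged from 79 to 153 and from 112 to 163.

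Tandem-pore (KCNK) channels carry background potassium current. KCNK10, a lipid- and stretch-sensitive member, had 60, 63, 67 and 71 counts in WT and 119, 132, 120 and 133 in EXT1-/- libraries, nearly a doubling with no overlap (0.94 ± 0.11, adjusted p 0.000214, limma). KCNK12 was higher by 0.64 ± 0.20, a call lost without WT replicate 1, 2 or 4 or EXT1-/- replicate 1, 2 or 4, and KCNK1 changed by -0.54 ± 0.10. The acid-sensitive KCNK5 made up 63.2% ± 1.28 of the summed level per kb of these 5 genes in WT and 63.8% ± 1.28 in EXT1-/- cells (SD, n = 4 each). Its counts were 774, 776, 722 and 741 in WT and 785, 657, 653 and 697 in EXT1-/- libraries, and it did not pass over all 8 (-0.11 ± 0.07, adjusted p 0.273, limma), though within the low set it was lower (-0.19 ± 0.06, adjusted p 0.0322). KCNK6 ranged from 176 to 229 and from 183 to 208 (-0.00 ± 0.10).

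Of 7 calcium pores, 3 rose and 1 fell (57.1%, against 32.0% of all genes). CACNA1G and CACNA1C, 2 of these, reached 1 CPM in 2 libraries only of the genotype where they are high. After CACNA1E and CACNA1G, the third was CACNA1B, the N-type pore that triggers transmitter release, with 417, 414, 386 and 342 in WT and 605, 571, 559 and 709 in EXT1-/- libraries (0.65 ± 0.10, adjusted p 0.00125, limma). CACNA1C, the L-type pore of heart and smooth muscle, had 60, 52, 59 and 53 in WT and 29, 24, 27 and 31 in EXT1-/- libraries, so that its highest EXT1-/- value was under 1 CPM (-0.99 ± 0.16, adjusted p 0.00142, limma). CACNA1C-AS2, an antisense transcript that shares 84 exon bases with it, was also lower (-1.11 ± 0.24, adjusted p 0.00721). CACNA1H, another T-type pore, was the most abundant of the role per length and had 717, 541, 605 and 385 in WT and 830, 642, 625 and 1043 in EXT1-/- libraries. These overlap, and CACNA1H did not pass (0.48 ± 0.22, adjusted p 0.123, limma). CACNA1A and CACNA1F did not pass either.

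**Figure D3:**
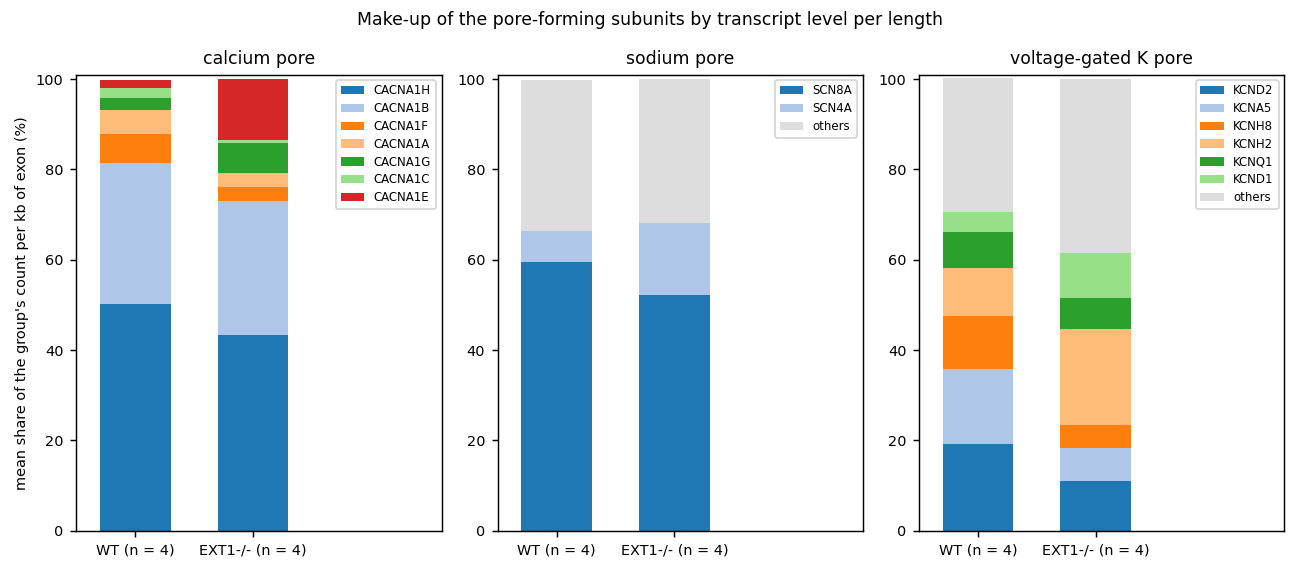
Stacked mean shares (%, n = 4 libraries per bar) of each gene in the summed normalised count per kb of exon of the calcium, sodium and voltage-gated potassium pores, WT beside EXT1-/-, with the remaining genes of a role pooled in grey. The CACNA1E block grows from 1.8 to 13.5% of the calcium pores, and SCN4A grows from 6.7 to 15.9% of the sodium pores.

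The make-up of the calcium pores by level per kb therefore differed between genotypes. CACNA1E took 1.8% ± 0.31 of the summed level in WT and 13.5% ± 2.11 in EXT1-/- cells, CACNA1G 2.7% ± 0.33 and 6.5% ± 1.12, and CACNA1C 2.3% ± 0.34 and 0.7% ± 0.06 (SD, n = 4 each). The ranges over libraries did not overlap for any of these 3. CACNA1H and CACNA1B were the leading pores in both genotypes, at 50.3% ± 3.74 and 31.1% ± 3.65 in WT and 43.3% ± 3.86 and 29.8% ± 1.89 in EXT1-/- cells. Shares depend on the joined exon lengths, from 8606 bases for CACNA1H and 9897 for CACNA1B to 43159 for CACNA1A. The summed level of the 7 pores was 128.4 ± 23.0 per kb in WT and 208.6 ± 32.9 in EXT1-/- cells. Among voltage-gated potassium pores, KCND2 led in WT with 19.2% ± 1.51, followed by KCNA5 with 16.6% ± 1.5, whereas KCNH2 led in EXT1-/- cells with 21.2% ± 1.39 against 10.5% ± 1.22 in WT. Their summed level was 385.5 ± 24.7 and 343.9 ± 38.1 per kb, with overlapping ranges.

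Auxiliary subunits of calcium channels include α2δ proteins (CACNA2D), which raise pore density at the surface, cytoplasmic β subunits (CACNB) and γ subunits (CACNG), several of which mainly serve AMPA receptors. CACNA2D1 rose from 1346 ± 78.0 to 2025 ± 276 (SD, n = 4 each; 0.58 ± 0.10, adjusted p 0.00223, limma) and CACNA2D3 from 83.5 ± 15.5 to 163.2 ± 11.9 (0.97 ± 0.14, adjusted p 0.00105, limma). CACNA2D2 ranged from 1283 to 1727 and from 1415 to 1799 and did not pass. Of the β genes CACNB3 rose, CACNB2 fell (-0.37 ± 0.12, adjusted p 0.0422, limma; 0.186 within the low set, lost without any 1 library other than EXT1-/- replicate 3, and not called in the authors' deposited table), and CACNB1 and CACNB4 did not pass.

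The γ genes CACNG7, CACNG8 and CACNG6 lie next to each other on chromosome 19, from 53909335 to 54012669, all on the plus strand. CACNG8 fell from 146.2 ± 14.2 to 103.5 ± 7.19 (SD, n = 4 each; -0.49 ± 0.11, adjusted p 0.00741, limma). CACNG6 had 88, 60, 69 and 60 in WT and 68, 37, 37 and 47 in EXT1-/- libraries and did not pass over all 8 (-0.57 ± 0.23, adjusted p 0.0894). CACNG7 had 1423, 819, 859 and 639 in WT and 1218, 631, 600 and 1222 in EXT1-/- libraries. Within each genotype the high-set libraries held the highest values of CACNG7 and CACNG6. With genotype as the only term its difference was -0.05 ± 0.31 (adjusted p 0.928, limma). When the model also held a term for the set, a fit that calls 51.8% of all genes, all 3 were lower: CACNG7 by -0.28 ± 0.09 (adjusted p 0.0242), CACNG8 by -0.53 ± 0.10 (0.00167) and CACNG6 by -0.71 ± 0.16 (0.00475, limma). In low-set libraries alone CACNG7 did not pass (-0.32 ± 0.12, adjusted p 0.0651, limma). CACNG4, on chromosome 17, did not pass in either fit (-0.06 ± 0.09 with that term).

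Sodium pores were led by SCN8A, the main pore of mature neurons at the axon initial segment. SCN8A (chromosome 12, 51590266 to 51812864, plus strand) had 2435, 2148, 2094 and 2031 in WT and 1735, 1768, 1735 and 1644 in EXT1-/- libraries. No values overlapped, and the fall was small (-0.34 ± 0.07, adjusted p 0.00495, limma; -0.26 within the low set). SCN4A, the skeletal muscle pore, had 180, 126, 120 and 121 in WT and 295, 262, 313 and 290 in EXT1-/- libraries (1.10 ± 0.14, adjusted p 0.000446, limma). By set the difference was 1.22 (low) and 0.70 (high), and the high-set WT library was the highest of its genotype. By share of the summed level per kb, SCN8A took 59.6% ± 0.91 in WT and 52.2% ± 2.67 in EXT1-/- cells and SCN4A 6.7% ± 0.81 and 15.9% ± 1.00 (SD, n = 4 each). SCN9A and SCN11A, pores known from sensory neurons, did not pass.

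Ranked by mean normalised count per kb in WT, the order over the channel genes began with CACNG7 (334 ± 121 in WT, 328 ± 125 in EXT1-/-), KCNG1 (253 ± 25.8, 332 ± 130), CACNA2D2 (227 ± 32.1, 256 ± 30.8), KCNMB4 (213 ± 11.9, 203 ± 8.69), KCNK5 (201 ± 7.0, 186 ± 16.3), CACNA2D1 (149 ± 8.66, 225 ± 30.6) and SCN8A (146 ± 12.0, 115 ± 3.57; SD, n = 4 each). In the first 5 places the mean ± SD of each gene overlapped that of the next in both genotypes or in WT. That spread is over libraries and does not compare genes within a library, and their order was not tested. In the fit with genotype as its only term, CACNA2D1 and SCN8A of these 7 were called. CACNG7 was called only with the library set as a term, and not in the low set alone, as given above. KCNK5 was called only in the low set alone, and not with the set as a term (adjusted p 0.0551, limma). Genes that moved most stood lower: CACNA1E was at 2.30 ± 0.0774 per kb in WT and 27.7 ± 1.75 in EXT1-/- cells. Pore-forming genes were called in 23 of 37 cases (62.2%) and auxiliary or modifier genes in 10 of 27 (37.0%), against 32.0% of all genes. The difference between these was not tested. Both counts hold called members that reached 1 CPM in 2 libraries of 1 genotype only. These are CACNA1G, CACNA1C, KCNMA1 and KCNK12 among the pores, and KCNIP1 and KCNS1 among the others. Without such members 46.6% of the channel genes were called, against 30.6% of all genes chosen the same way.

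**Figure D4:**
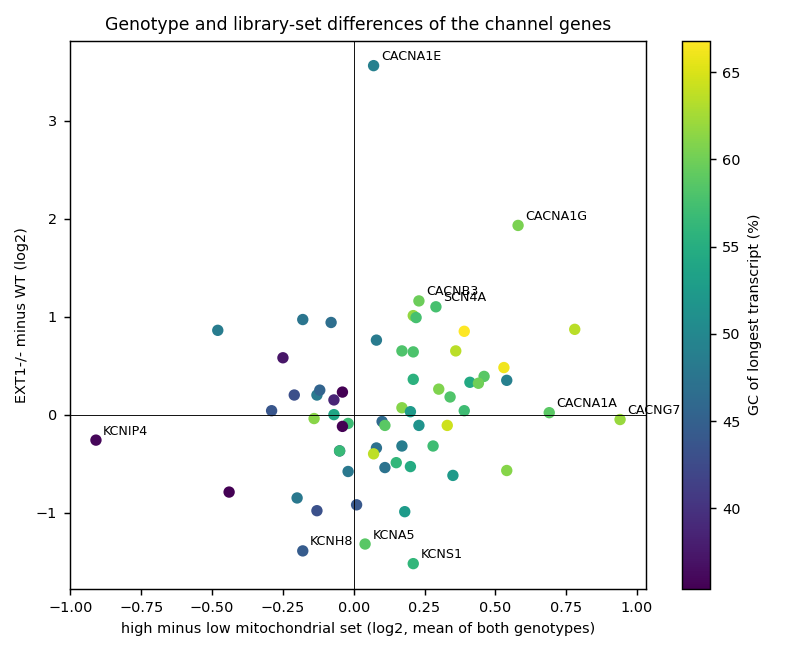
Each point is 1 of the 64 channel genes: the log2 difference between genotypes (y) against the log2 difference between high-set and low-set libraries averaged over genotypes (x), coloured by the GC content of the longest GENCODE 29 transcript. CACNA1E, KCNA5 and KCNH8 differ by genotype with little set difference, while CACNG7, CACNA1A and KCNIP4 differ by set with little genotype difference.

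Some channel genes differed more between library sets than between genotypes. In 21 of the 64, none of them called, the set difference was larger in absolute size than the genotype difference. For some both were small, as for KCNK6 (-0.07 by set and -0.00 by genotype). The share of all genes with a larger set difference was not counted. A call itself needs a clear genotype difference, and the WT part of each set difference rests on WT replicate 1 as the only high-set library. Set differences of at least 0.5 on the log2 scale in both genotypes were found for 5 members, among them KCNIP4, CACNG7, CACNA1A and CACNA1H. That is 7.81% of the members against 8.17% of all genes. CACNA1A, the P/Q-type pore, had 406, 268, 261 and 221 in WT and 333, 227, 223 and 391 in EXT1-/- libraries: high-set values of 333 to 406, low-set values of 221 to 268, and a genotype difference of 0.02. Across the 64 genes the set difference went with transcript GC content (Spearman's rho 0.72, and 0.49 over all genes) and the genotype difference less so (0.27 and 0.23). These are descriptions over genes that share the same 8 libraries, and EXT1-/- has 2 high-set libraries to 1 in WT.

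All 33 called genes had the same sign within both sets. In all but 1 of them the groups do not overlap, which fixes the sign within any set. The high set also holds only 1 WT library. With the set as a term, 39 of 64 were called (60.9%; 51.8% of all genes), the 33 and 6 more, among them CACNB1, CACNG6, CACNG7, KCNMB1 and KCNS3. Within the low set alone 34 were called (53.1%; 45.4% of all genes), with 4 of the 33 lost, CACNB2, KCNK12 and KCNN2 among them. The authors' deposited table calls 15 channel genes higher and 11 lower, all 26 among the 33 and in the same direction. The 7 not called there were KCNAB3, KCNIP1, CACNB2, KCNMA1, KCNN2, KCNK12 and KCNQ1. KCNMB3, not called, shares 37.9% of its exon bases with PIK3CA on the opposite strand.

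Some markers of other cell types also differed between genotypes. Of 12 neuron markers 9 were in the table, 5 higher and 1 lower, with a summed count of 9223 to 9909 in WT and 15210 to 18494 in EXT1-/- libraries. TUBB3, a neuronal tubulin, went from 2548 ± 253 to 7013 ± 1036 and STMN2 from 202.5 ± 14.2 to 1691 ± 239, while SYT1, a synaptic vesicle protein gene, fell from 893.2 ± 75.2 to 454.5 ± 61.2 (SD, n = 4 each). Of 10 cardiac and skeletal muscle markers 4 were in the table (summed 343 to 756 and 138 to 529) and only DES was called, as lower. Among 5 neural progenitor markers NEUROG2 and NES were in the table and higher, and among 6 fibroblast markers 4 were, all lower (8418 to 9156 and 5026 to 5669). No marker in the table was at 0 in all libraries. The part of such cells in the channel values was not tested, and in bulk samples fewer cells of a type and less RNA per cell cannot be told apart.

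Genes that work with these channels were followed through 4 lists of 130 genes, of which 104 were in the table, 20 higher and 22 lower (40.4% called, against 32.0% of all genes; median log2 fold change 0.06). With the library set as a term 37 of them were higher, in a fit that calls 51.8% of all genes. The 20 higher and 22 lower genes include some that reached 1 CPM only in the genotype where they are high. TRPC6, ASIC3, LGI1 and SLC8A1 are among these, and the shares of their lists below hold them too. No count of the lists without such genes was made. Among 37 genes of other channels, partners of the sodium leak channel included, 8 were higher and 9 lower (45.9% called). Of all genes, 15.2% were higher and 16.8% lower. TRPC6, a cation channel opened by diacylglycerol, had 7, 9, 14 and 8 in WT and 116, 139, 128 and 86 in EXT1-/- libraries (3.51 ± 0.25, adjusted p 1.52e-05, limma). UNC79, a partner of the sodium leak channel, rose by 0.85 ± 0.08 and the stretch-activated PIEZO2 by 0.43 ± 0.05. Their relatives went other ways: PIEZO1, also stretch-activated, was lower (-1.09 ± 0.14). Of the other partners of the sodium leak channel, NALF1 was lower (-0.60 ± 0.09), and UNC80 and NALF2 did not pass. SCNN1A, the α subunit of the epithelial sodium channel, fell from 1467 ± 340 to 513.2 ± 89.1 (SD, n = 4 each). Of the 3 pacemaker channel genes listed, HCN3 was higher (0.47 ± 0.10), and HCN2 and HCN4 did not pass.

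Of 28 partners and anchors, 4 were higher and 6 lower (35.7%), a share near the 32.0% of all genes. FGF13, which binds sodium pores, fell from 1942 ± 130 to 684.5 ± 57.8 and LRRC55, a γ subunit of KCNMA1 channels, from 472.0 ± 21.5 to 186.8 ± 34.2 (SD, n = 4 each). DPP10, a partner of KCND pores, is also in the list, with -0.57 ± 0.10 (adjusted p 0.00252, limma). LGI1, a secreted protein that affects KCNA channels, rose from 22.8 ± 4.35 to 295.8 ± 73.2, and CAV1 by 0.73 ± 0.07. Pumps and exchangers were called in 8 of 23 cases, 4 each way (34.8%), also near that share. The potassium-chloride cotransporter SLC12A4 fell from 787.8 ± 30.4 to 382.8 ± 9.03, and the sodium-calcium exchanger SLC8A1 and the pump regulator FXYD7 were lower (log2 fold changes -1.71 ± 0.43 and -0.87 ± 0.23). Among 16 calcium store channels 4 were higher and 3 lower (43.8% called, against 32.0% of all genes): the inositol trisphosphate receptor ITPR3 fell from 1368 ± 123 to 575.2 ± 58.3 and ITPR2 was lower (-0.52 ± 0.07), whereas ITPR1 rose by 0.49 ± 0.07 and the calcium sensor STIM2 by 0.27 ± 0.06.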

How the data were processed

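The submitters' processing notes name STAR, RSEM and edgeR and the build GRCh38.p10, without versions. Per the labels a stranded total RNA kit was used. The authors deposited 1 table with whole-number signal values per library, called normalised counts here. They are not raw counts, since effective library sizes recomputed by the trimmed mean of M values were 38891440 to 38902932, so the sequencing depth of a library is unknown. The second-highest value of any gene was at least 38. For each gene the authors deposited their own comparison too: log2 values (fold change and mean CPM), the test's score, and the p-value before and after FDR adjustment; 0 columns of other samples were present.

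The design preferred a count test if raw counts were found; limma 3.58.1 (R 4.3.3) on log2(value + 1) with an intensity trend was used, with genotype as the only term, a minimum mean of 1 in 1 of the groups and Benjamini-Hochberg adjustment over 15811 genes. All 64 members passed that filter. The fit was tested on simulated data. Levels per kb use the union of GENCODE 29 exons, which can be longer than any single transcript and then lowers the level of that gene. Members and lists were chosen with earlier results of these data known. Genes named in full were those past the threshold with at least 2-fold change and 1 CPM in the higher group, the most abundant of each role per length and a fixed set of well-known channels; others, such as KCND1, KCNG3, KCNE3, KCNJ8, KCNK10, KCNT2, the CACNG cluster and the genes that follow the library set, were chosen after their values were seen. Some genes are not reported here by name. Alternatives were other pseudocounts, filters, scalings and variance models, a replicate block, the library set, and each library left out. Tables, figures and permutation tests were made in Python 3.11.15 with pandas 2.3.3, numpy 2.4.6, scipy 1.17.1 and matplotlib 3.10.9.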

Additional observations from a re-analysis of the deposited data

Results flagged for a closer look

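SCN4A in WT replicate 1 had 180 normalised counts, while the other 3 WT libraries had 120 to 126, which sets that library far from the rest of its group. Of 52 groups of 4 values tested in the named genes it was the only one so marked, and about 1 in 20 would be by chance. WT replicate 1 is the WT library of the high mitochondrial set. Without it SCN4A was still called higher in EXT1-/- cells.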

How the results depend on the processing

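Of 26 named genes, 19 kept their call and direction under all 20 alternatives, and no called gene changed sign. The exceptions included KCNMA1, KCNN2 and KCNQ1, which lost the call under some, and CACNG7 and KCNK5, which gained it under some. The count of higher channel genes was 13 to 18 with 1 library left out (17 with all) and that of lower ones 12 to 15 (16 with all); for the partner lists these were 15 to 24 (20 with all) and 18 to 23 (22 with all). With the library set as a term 37 partner genes were higher, where 51.8% of all genes are called against 32.0% without it. With the replicate block 14 channel genes were higher and 14 lower, 6 lost the call, among them KCNAB3, CACNB2, KCNK12, KCNN2 and KCNQ1, and CACNG6 gained it. Deviations of same-numbered libraries correlated at 0.67, 0.16, 0.24 and -0.52, and 2 of 8 libraries correlated best with their own number. Replicate 1 is of the high set in both genotypes and replicate 4 in EXT1-/- only. These values therefore cannot tell whether same-numbered libraries belong together. The count tools planned as alternatives were not run, since the values used here are normalised. Genes near 1 CPM limit what small changes can be called.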
